A study of Homo sapiens with 6 samples.

Results

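The 10 genes described here encode the proteins that load cohesin onto DNA, take it off, lock it in place and stop its movement along chromatin. They were chosen by symbol in the deposited table of expected counts, with the older names WAPAL for WAPL and SGOL1 for SGO1, and all 10 were found among its 57820 genes. Each symbol matched 1 row. RNA was sequenced from M14, a human melanoma cell line that stably expresses a doxycycline-inducible shRNA against STAG2, the cohesin subunit most often mutated in cancer. Both conditions carried this shRNA and were kept under puromycin selection in RPMI with serum. The 3 STAG2 KD libraries came from cells grown for 5 days with doxycycline (5 µg/ml in the study's methods), and the 3 WT libraries from cells grown without it. WT is therefore uninduced rather than free of the construct, and the effects of doxycycline and of STAG2 loss cannot be told apart here. The study describes its replicates as biologically independent, and the labels do not name the cultures they came from. The melanocyte lineage markers fixed for this check were above 1 CPM (counts scaled to the library total) in every library, 10 of 10 genes. Of the 17 markers of immune, endothelial, epithelial and fibroblast cells, CD68 and COL1A1 alone reached 1 CPM in every library, and PECAM1 had no row.

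Cohesin is a ring of SMC1A, SMC3 and RAD21 that carries STAG1 or STAG2. The NIPBL and MAU2 dimer loads the ring and drives its extrusion of DNA loops, WAPL with PDS5A or PDS5B opens the ring and releases it, and DNA-bound CTCF halts extrusion at domain boundaries. Acetylation of SMC3 by ESCO1 or ESCO2 makes cohesin stable, sororin (CDCA5) then shields it from WAPL until mitosis, SGO1 protects it at centromeres, and HDAC8 removes the acetyl groups so that cohesin can be used again. The comparison asks whether the RNA of these regulators differed between cells with and without induction of the STAG2 shRNA.

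Library totals ran from 24895998 to 35181733 expected counts, and 3 counts corresponded to between 0.0853 and 0.121 CPM. Such floors cover counting error only. WT replicate 1 stood apart, with 5.07% of its counts on mitochondrial genes against 2.12% to 2.94% in the other libraries. It had the smallest total but the most genes above 0, 20646 against 16028 to 17995 in the others. KD replicate 1 had the fewest, 16028, so the libraries numbered 1 were not alike in this. STAG2 itself was at 66.5, 34.8 and 28.8 CPM in WT replicates 1 to 3 and at 16.0, 7.31 and 6.70 CPM in the KD replicates, scaled by edgeR's TMM method as are all CPM below. Every KD library was thus below every WT library for the targeted gene (log2 fold change −2.12, standard error 0.43, adjusted p = 0.0342 in edgeR's quasi-likelihood test).

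None of the 10 regulators was called as differentially expressed between STAG2 KD and WT. The count was 0 of 10 at an adjusted p under 0.05 in edgeR's quasi-likelihood test, where 2.59% of the 15605 tested genes were called. At that share a count of 0 in 10 genes does not set the regulators apart from other genes. All 10 passed the filter on low counts. At an unadjusted p under 0.05 edgeR again called 0 of the 10, where 14.8% of the tested genes passed. DESeq2 and limma-voom also called 0 of the 10, with and without adjustment. They called 6.33% and 2.64% of the tested genes after adjustment, and 15.7% and 15.8% passed an unadjusted p under 0.05. With the replicate number as a block, edgeR called 9.52% of the tested genes after adjustment and still 0 members. Before adjustment PDS5B and HDAC8 passed 0.05 in that fit, 2 of 10, where 22.9% of the tested genes did. The log2 fold changes ran from −0.79 for ESCO2 to 0.49 for HDAC8, with a median of −0.29 beside −0.03 over all tested genes. They were below 0 in 9 of the 10, where 8119 of the 15605 tested genes were. Without WT replicate 1 the estimates of NIPBL, WAPAL, PDS5A and ESCO1 were above 0. A missed threshold does not show that levels were equal, and the 95% intervals give the sizes that remain possible in the main, unpaired edgeR fit. Differences between replicates add to their width. For NIPBL the standard error was 0.36 in that fit and 0.19 with the replicate block. ESCO2 alone had a larger error with the block, 0.66 against 0.64. No intervals were computed with the block. The unpaired intervals were narrowest for CTCF, from 0.697-fold to 1.26-fold, and widest for ESCO2, from 0.215-fold to 1.56-fold.

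**Figure D1:**
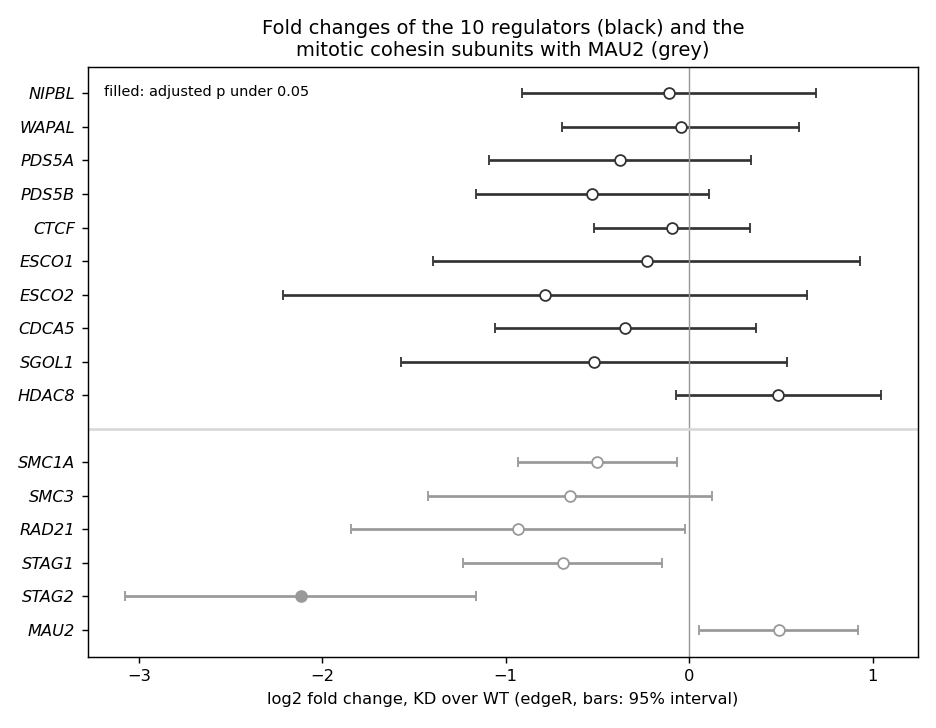
Log2 fold change of KD over WT (x axis) for the 10 regulators in black and, in grey, the mitotic cohesin subunits with MAU2; circles are edgeR estimates, bars 95% intervals, and filled circles have an adjusted p under 0.05. STAG2 alone is filled, and all 10 black intervals cross 0.

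NIPBL, the loader that also powers loop extrusion (ENSG00000164190, plus strand of chromosome 5, 36876871 to 37066515 on GRCh37), had an estimate near 0 with a wide interval. It was at 36.997, 19.3 and 19.8 CPM in WT and at 34.5, 16.9 and 19.2 CPM in KD. Replicate 1 held the highest value in each condition, and the conditions overlapped. The means were 25.4 ± 10.1 and 23.5 ± 9.60 CPM (SD, n = 3 each), with a log2 fold change of −0.11 (95% interval −0.91 to 0.69, adjusted p = 0.940, edgeR). The estimate turned to 0.25 when WT replicate 1 was left out.

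MAU2, the partner that NIPBL needs for loading, had an estimate above 0. Its levels were 47.8, 61.4 and 61.2 CPM in WT and 70.1, 83.9 and 84.9 CPM in KD. The conditions did not overlap, yet the log2 fold change of 0.49 missed the threshold (standard error 0.19, adjusted p = 0.271 in edgeR).

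WAPAL, the release factor (ENSG00000062650, minus strand of chromosome 10, 88195013 to 88281549), had the fold change nearest 0 of the 10. The WT libraries had 30.3, 20.6 and 18.1 CPM and the KD libraries 28.5, 20.1 and 18.2 CPM. Replicate by replicate the conditions ran side by side. Its log2 fold change was −0.05 (95% interval −0.69 to 0.60, adjusted p = 0.970, edgeR), and its sign turned when WT replicate 1, KD replicate 2 or KD replicate 3 was left out.

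PDS5A and PDS5B are paralogous partners of WAPL that also hold the acetyltransferases and sororin on cohesin. PDS5A (ENSG00000121892, minus strand of chromosome 4, 39824483 to 39979576) was at 58.7, 26.8 and 32.3 CPM in WT and at 38.5, 27.1 and 25.2 CPM in KD. WT replicate 1 alone lay well above the rest, and without it the log2 fold change moved from −0.38 (95% interval −1.09 to 0.34, adjusted p = 0.690, edgeR) to 0.024.

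PDS5B (ENSG00000083642, plus strand of chromosome 13, 33160589 to 33352157) was at 27.6, 19.0 and 18.9 CPM in WT and at 19.2, 13.0 and 13.2 CPM in KD. KD replicate 1 overlapped the WT range by a margin smaller than the spread between replicates. Within each replicate number KD was lower than WT, and the differences on the log2 CPM scale were nearly equal, at −0.52, −0.55 and −0.52 for numbers 1 to 3. Over all libraries the means were 21.8 ± 5.01 and 15.1 ± 3.54 CPM (SD, n = 3 each), a log2 fold change of −0.53 (95% interval −1.16 to 0.11, adjusted p = 0.447, edgeR). With the replicate block the adjusted p was 0.155 in edgeR. Without WT replicate 1 the estimate was −0.33.

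**Figure D2:**
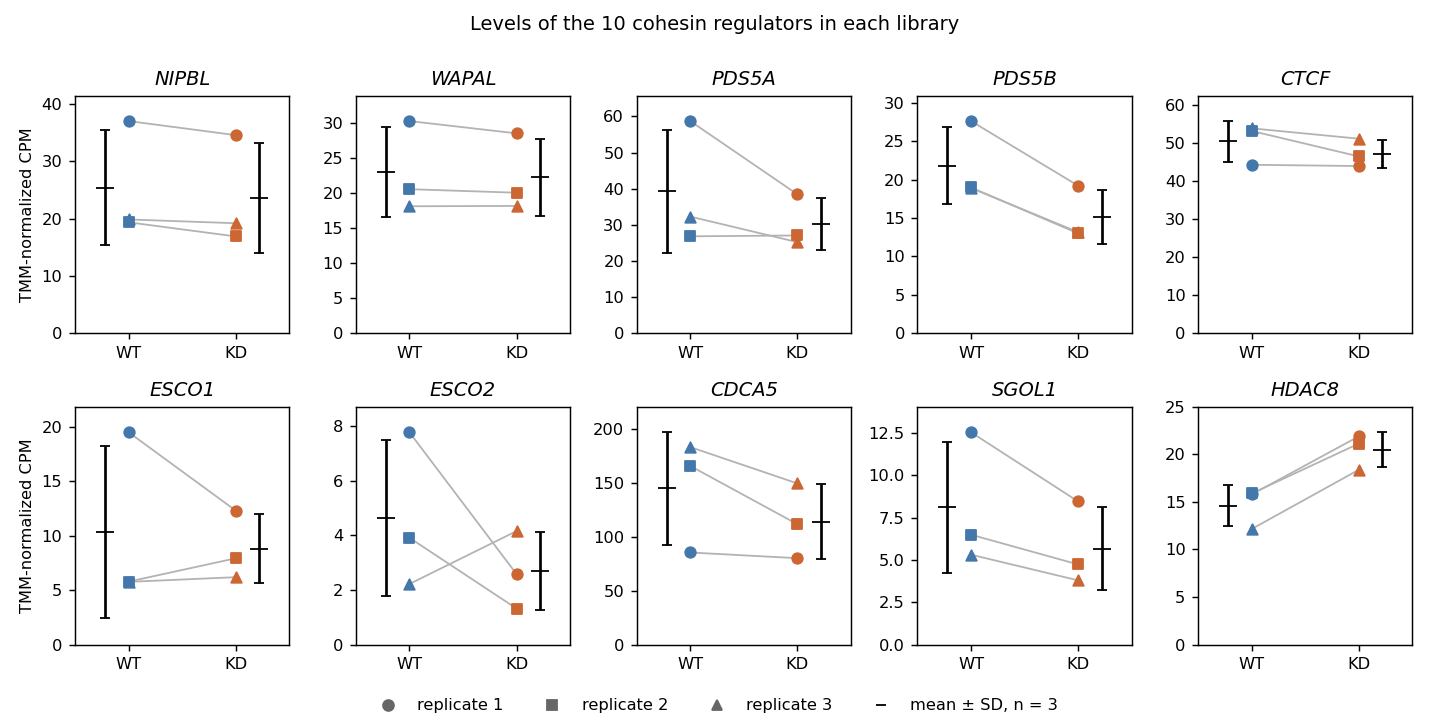
TMM-normalized CPM (y axis, from 0) of each regulator in the WT (blue) and KD (orange) libraries; grey lines join libraries with the same replicate number, and black bars are the mean ± SD of 3 libraries. In HDAC8 alone the KD points, from 18.4 to 21.9 CPM, all lie above the WT points, from 12.2 to 15.9 CPM.

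CTCF, the boundary factor (ENSG00000102974, plus strand of chromosome 16, 67596370 to 67673080), had the smallest SD relative to its mean of the 10 in both conditions. It was at 44.3, 53.2 and 53.9 CPM in WT and at 44.001, 46.5 and 51.2 CPM in KD. Replicate 1 was lowest in both conditions and nearly the same in each. The means of 50.5 ± 5.34 and 47.2 ± 3.65 CPM (SD, n = 3 each) gave a log2 fold change of −0.10 (95% interval −0.52 to 0.33, adjusted p = 0.890, edgeR). A change of 2-fold in either direction lies outside that interval.

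The acetyltransferases were low and scattered. ESCO1, which acetylates SMC3 throughout interphase (ENSG00000141446, minus strand of chromosome 18, 19109245 to 19180845), was at 19.5, 5.77 and 5.75 CPM in WT and at 12.3, 7.92 and 6.18 CPM in KD. WT replicate 1 exceeded the other WT libraries by 1.75 on the log2 CPM scale, more than any difference between conditions in this gene. The log2 fold change was −0.23 (95% interval −1.40 to 0.93, adjusted p = 0.904, edgeR), and 0.60 without WT replicate 1.

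ESCO2, the acetyltransferase of S phase (ENSG00000171320, plus strand of chromosome 8, 27629466 to 27670157), had the fewest reads of the 10, from 38.58 to 209.11 expected counts per library. Its levels were 7.79, 3.92 and 2.22 CPM in WT and 2.58, 1.32 and 4.16 CPM in KD. KD was below WT in replicate numbers 1 and 2 and above it in number 3. The log2 fold change was −0.79 (95% interval −2.21 to 0.64, adjusted p = 0.671, edgeR), an interval that holds both a 2-fold lower and an equal level. The estimate was −0.20 without WT replicate 1 and −1.27 without KD replicate 3. The annotated span of ESCO2 overlaps those of PBK and CCDC25 on the opposite strand, which averaged 617 and 577 expected counts in WT. Overlap of their exons was not checked. Counts were not whole numbers in all 6 libraries for ESCO1 and ESCO2, and in 4 libraries for SGOL1. RSEM thus divided some reads of these members with other genes, which were not identified.

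CDCA5 and SGOL1 protect cohesion after DNA replication, and both are known to be transcribed mainly in cycling cells. CDCA5 (ENSG00000146670, minus strand of chromosome 11, 64833772 to 64851636), the gene of sororin, was at 85.2, 165 and 183 CPM in WT and at 79.9, 111 and 149 CPM in KD. The lowest value of each condition was replicate 1, and KD was below WT within every replicate number. Its log2 fold change was −0.35 (95% interval −1.06 to 0.36, adjusted p = 0.721, edgeR). It was −0.62 without WT replicate 1 and −0.14 without KD replicate 1.

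SGOL1 (ENSG00000129810, minus strand of chromosome 3, 20202085 to 20227698), the centromere guardian, was at 12.6, 6.50 and 5.32 CPM in WT and at 8.46, 4.74 and 3.79 CPM in KD. Here replicate 1 was the highest in each condition, and KD was again lower in every replicate number, by 0.57, 0.45 and 0.48 on the log2 CPM scale. The log2 fold change was −0.52 (95% interval −1.57 to 0.53, adjusted p = 0.718, edgeR). It was −0.073 without WT replicate 1 and −0.93 without KD replicate 1.

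In a list of 38 genes of DNA replication and mitosis, 9 fell in the same libraries and 29 did not pass the test. In edgeR's quasi-likelihood test 0.839% of all tested genes were lower in KD after adjustment and 1.75% higher, and 0 of the list were higher. The 9 were KIF20A, TOP2A, PLK1, CCNB2, CENPF, AURKA, TPX2, UBE2C and MKI67, which are known from mitosis and from proliferating cells. Genes of DNA replication itself did not pass, with adjusted p from 0.0774 for MCM6 to 0.741 for MCM2 among the helicase subunits MCM2 to MCM7 (edgeR), although MCM4, MCM6, MCM7 and TYMS were lower with the replicate block. With the replicate block 24 were lower, where the share over tested genes was 4.42%. Over all 38 genes the log2 fold changes of the unpaired fit had a median of −0.94, with 37 below 0. KIF20A, a kinesin of cytokinesis, fell from 96.3 ± 7.47 to 16.4 ± 5.22 CPM (SD, n = 3 each), and its libraries did not overlap (log2 fold change −2.56, standard error 0.27, adjusted p = 0.00110, edgeR). TOP2A, which untangles sister DNA, fell from 174.3 ± 77.0 to 37.4 ± 6.69 CPM (adjusted p = 0.00582, edgeR). PLK1, the kinase that removes most cohesin from chromosome arms in prophase, fell from 399.5 ± 98.3 to 106.7 ± 48.2 CPM (adjusted p = 0.0267, edgeR). CCNB2 and CENPF also fell, by 1.35 and 1.52 on the log2 scale (adjusted p = 0.0320 and 0.0321, edgeR). Marker sums also differed between libraries, and their part in the fall was not tested. The 10 melanocyte lineage markers summed to between 1826 and 6979 CPM in WT and between 1256 and 2857 CPM in KD (unscaled by TMM). These ranges overlapped. Of the 10 markers, 7 were lower in KD in every replicate number and 1, PAX3, was higher in each. Replicate 1 stood apart in both conditions, with PMEL at 3634, 648 and 644 CPM in WT and at 1337, 339 and 360 CPM in KD. The 5 immune markers summed to between 28.3 and 40.1 CPM in WT and between 85.4 and 134 CPM in KD, nearly all of it CD68, with CD3E at 0 throughout. The 5 fibroblast markers, mostly COL1A1, summed to between 4.47 and 90.02 CPM in WT and between 3.72 and 21.9 CPM in KD. A lower share of dividing cells and less RNA per dividing cell cannot be told apart in bulk RNA. From earlier work, the paper reports that cell cycle progression was not apparently affected by STAG2 knockdown in melanoma cells. Whether that held in these cultures was not tested. The difference between CDCA5, SGOL1 or ESCO2 and the genes of this list was not tested.

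**Figure D3:**
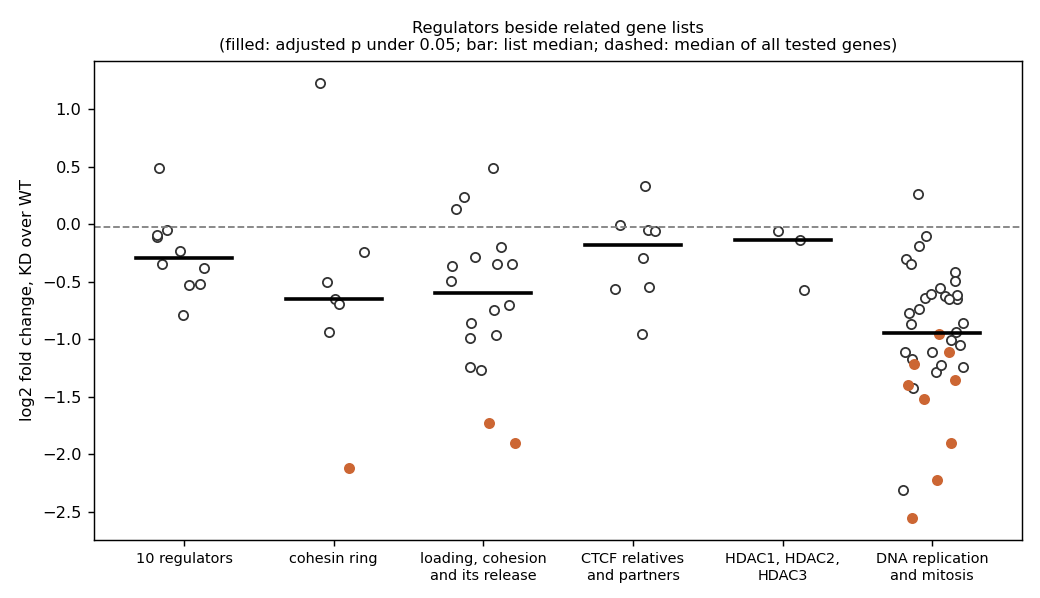
Log2 fold change of KD over WT (y axis) of each tested gene in the 10 regulators and 5 related lists; filled points have an adjusted p under 0.05 in edgeR, bars mark list medians, and the dashed line is the median of all tested genes. The regulators lie between −0.79 and 0.49 with no filled point, while the replication and mitosis list has 9 filled points below 0.

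The promoters of CDCA5 and SGOL1 are shown beside that of PLK1, as examples of members that were not called and of a mitotic gene that fell. Each line gives the 250 bases before the RefSeq start (GRCh38.p14), 5′ to 3′ on the gene's strand, at chr11:65084041-65084290 (minus) for CDCA5, chr3:20186207-20186456 (minus) for SGOL1 and chr16:23678639-23678888 (plus) for PLK1. Capitals mark a CHR element (spelled TTTGAA, with the variant spelling TTTAAA also counted), a CCAAT box, or an E2F element (TTTCCCGC, TTTGGCGC, TTTCGCGC or TTTGCCGC), all searched on both strands.
CDCA5: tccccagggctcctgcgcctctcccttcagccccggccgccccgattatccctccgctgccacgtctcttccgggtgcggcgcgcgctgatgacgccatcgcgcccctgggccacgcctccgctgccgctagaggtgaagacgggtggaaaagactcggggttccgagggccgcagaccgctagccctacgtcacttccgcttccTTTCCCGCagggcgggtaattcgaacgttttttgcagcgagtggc
SGOL1: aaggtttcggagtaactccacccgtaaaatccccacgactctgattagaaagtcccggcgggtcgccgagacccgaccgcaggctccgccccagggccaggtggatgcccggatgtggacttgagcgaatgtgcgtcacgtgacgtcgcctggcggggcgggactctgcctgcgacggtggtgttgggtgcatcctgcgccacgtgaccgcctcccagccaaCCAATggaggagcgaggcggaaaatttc
PLK1: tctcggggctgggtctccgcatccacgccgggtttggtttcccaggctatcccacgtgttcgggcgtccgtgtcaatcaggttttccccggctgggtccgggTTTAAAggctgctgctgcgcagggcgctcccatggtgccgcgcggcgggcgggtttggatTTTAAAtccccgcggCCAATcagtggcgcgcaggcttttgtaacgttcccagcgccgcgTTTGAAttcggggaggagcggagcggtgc
CDCA5 held an E2F element that begins 45 bases before the start, and SGOL1 a CCAAT box that begins 28 bases before it. PLK1 held 1 CCAAT box and 3 CHR elements, the most of any called gene with an entry. Its TTTGAA begins 29 bases before the start, and the others are TTTAAA. Only the spellings given above were searched. The letters TTCGAA, which the CDCA5 line holds after its E2F element, were not counted, so a CHR element in another spelling could have been missed.

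Of the 10 related genes lower in KD apart from STAG2, 6 had an entry in the promoter table, and all 6 (CCNB2, CENPF, KIF20A, MKI67, PLK1 and TOP2A) held both a CHR element and a CCAAT box. Of the 10 regulators 8 had an entry. Among these, CTCF held a CHR element in the spellings counted, and WAPAL, PDS5A, PDS5B and SGOL1 held a CCAAT box. Over 35116 promoters of the same length, 21.9% held a CHR element and 32.01% a CCAAT box. E2F elements were present in CDCA5 and NIPBL and in 2.79% of all promoters. The motifs were chosen after the expression values were seen, and a match says only that the letters are present. G and C made up 64.0% to 78.0% of the member promoters apart from HDAC8 (48.0%), and 48.8% to 68.4% of the called genes' promoters. This difference in bases was not allowed for. Genes of the related lists that were not called were not searched, so whether these motifs go with the fall was not tested.

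HDAC8, which deacetylates SMC3 (ENSG00000147099, minus strand of chromosome X, 71549366 to 71792951), was the sole member above 0 in fold change. Its levels were 15.8, 15.9 and 12.2 CPM in WT and 21.9, 21.1 and 18.4 CPM in KD. The lowest KD library exceeded the highest WT library, as in 11.8% of tested genes, and p was 0.1 in a two-sided exact permutation test, which cannot go lower with 3 against 3. The KD minus WT difference within each replicate number was of similar size, at 0.47, 0.41 and 0.60 on the log2 CPM scale. The means were 14.6 ± 2.13 and 20.5 ± 1.85 CPM (SD, n = 3 each), with a log2 fold change of 0.49 (95% interval −0.07 to 1.04, adjusted p = 0.424, edgeR). With the replicate block the adjusted p was 0.200 in edgeR, so the difference did not pass the test in either fit. The value kept its sign in all 15 alternatives, between 0.36 and 0.55.

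Across the set, 1 of 10 members had no overlap between conditions, against 22.3% of the tested genes. None lay below WT without overlap, where 10.5% of the tested genes did. KD was lower than WT in all 3 replicate numbers for 5 members (NIPBL, PDS5B, CTCF, CDCA5 and SGOL1), where 22.9% of the tested genes were. It was higher in all 3 for HDAC8, where 23% were. With replicate 1 of both conditions left out, 5 members (the same as those lower in all 3 replicate numbers) lay below WT without overlap and 2 (ESCO1 and HDAC8) above it, where 24.3% and 26.5% of tested genes did. That is 7 of 10, where 50.8% of the tested genes had no overlap between 2 and 2 libraries, and edgeR called 0 members there, where 4.73% of genes were called.

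Replicate 1 stood apart in most of these genes. In 8 of the 10 its distance from replicates 2 and 3 was larger, in both conditions, than the difference between KD and WT, although by a small margin in PDS5B. The share of tested genes with such a distance was not computed, and replicates 2 and 3 were not set apart in this way. In 6 of the 10 (NIPBL, WAPAL, PDS5A, PDS5B, ESCO1 and SGOL1), replicate 1 was the highest library of both conditions, where 23.6% of tested genes had this pattern. In CTCF and CDCA5 replicate 1 was the lowest of both, as in 22% of tested genes. NIPBL stood 0.92 higher in replicate 1 than in replicates 2 and 3 in WT and 0.94 higher in KD on the log2 CPM scale, beside a KD difference of −0.11. SGOL1 stood 1.09 and 0.99 higher, beside −0.52. CDCA5 differed by −1.03 in WT and −0.69 in KD, beside −0.35. HDAC8 differed less, by 0.18 and 0.15 between replicates beside 0.49 between conditions. In ESCO2 the distance was 1.40 in WT and 0.14 in KD, beside −0.79. The labels do not say what libraries of 1 replicate number shared.

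**Figure D4:**
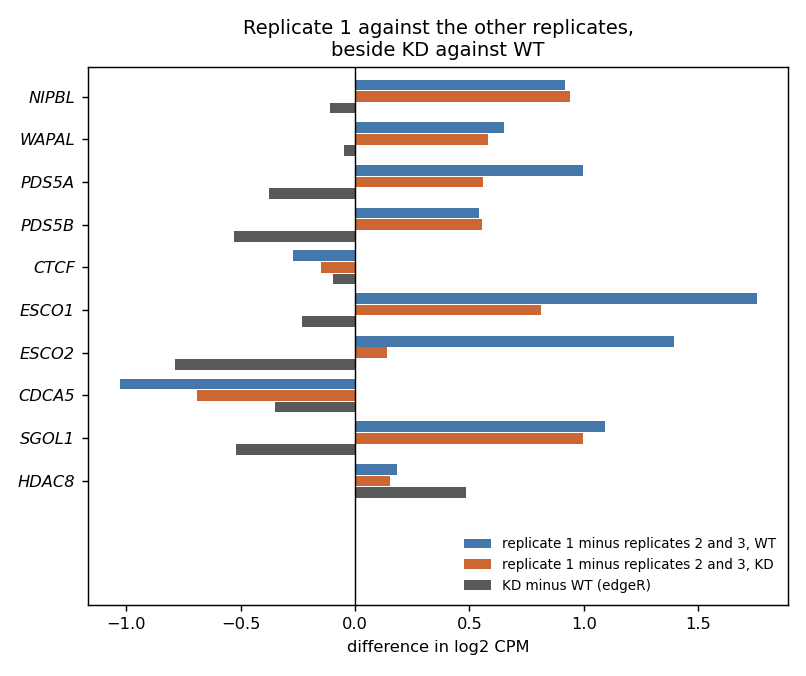
Difference in log2 CPM (x axis) of replicate 1 from the mean of replicates 2 and 3, in WT (blue) and KD (orange), and of KD from WT (grey, edgeR), for each regulator. For NIPBL the replicate bars reach 0.92 and 0.94 and the KD bar −0.11, and in HDAC8 the KD bar of 0.49 is the longest.

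Ratios between members of opposed or paralogous roles do not depend on how libraries are scaled. They were taken as the log2 ratio of expected counts (each plus 0.5) within a library, and KD and WT libraries overlapped in all 6 pairs. The exact permutation test (two-sided) gave p from 0.3 to 0.8, adjusted p = 0.8 for every pair, but with 3 against 3 it cannot go below 0.1, so no pair could have passed 0.05. This test was unpaired. Within replicate numbers the KD minus WT log2 ratio was below 0 in every number for NIPBL over WAPAL (−0.013, −0.16 and −0.052) and for CDCA5 over WAPAL (−0.0058, −0.53 and −0.30), and of mixed sign in the other pairs. The loader-to-releaser ratio, NIPBL over WAPAL, was 1.22, 0.941 and 1.09 in WT and 1.21, 0.842 and 1.06 in KD. PDS5A over PDS5B was 2.13, 1.41 and 1.71 in WT and 2.002, 2.08 and 1.92 in KD, with the KD libraries close together. ESCO1 over ESCO2 was 2.50, 1.47 and 2.56 in WT and 4.74, 6.01 and 1.48 in KD, and KD replicate 3 lay apart from the other KD libraries. CDCA5 over WAPAL, sororin against the factor it opposes, was 2.81, 8.04 and 10.1 in WT and 2.80, 5.55 and 8.20 in KD. CTCF over NIPBL was 1.20, 2.75 and 2.72 in WT and 1.27, 2.75 and 2.67 in KD, nearly the same within each replicate number. ESCO1 over HDAC8, acetylation against its removal, was 1.23, 0.363 and 0.473 in WT and 0.561, 0.375 and 0.336 in KD, and its log2 difference went from −0.53 to −0.0029 without WT replicate 1.

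Levels can be compared between genes only per length, so CPM was divided by the length in kilobases of each gene's canonical transcript (GENCODE 44 on GRCh37, from 1754 bases for HDAC8 to 10425 for NIPBL). In WT, CDCA5 was the most abundant at 58.4 ± 21.0 CPM per kb (SD, n = 3). CTCF followed with 13.2 ± 1.40 and HDAC8 with 8.33 ± 1.21 CPM per kb, and these 3 were separated, since the lowest library of each was above the highest of the next. PDS5A came next with 5.51 ± 2.39, then WAPAL with 3.64 ± 1.02, PDS5B with 2.92 ± 0.67, SGOL1 with 2.65 ± 1.27, NIPBL with 2.44 ± 0.96, ESCO1 with 2.30 ± 1.77 and ESCO2 with 1.24 ± 0.76 CPM per kb. From HDAC8 down, each gene overlapped its neighbour in this order. In KD, HDAC8 at 12.5, 12.1 and 10.5 CPM per kb overlapped CTCF at 11.5, 12.2 and 13.4 CPM per kb. The lengths RSEM used were not analysed here, and with all annotated exons merged in place of the canonical transcript HDAC8 took place 9 in the order.

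Of the 9 cohesin subunits listed, 7 were tested, and STAG2 alone passed the test, although SMC1A, SMC3, RAD21 and STAG1 also had estimates below 0. SMC1A was at 158.6, 170.7 and 129.4 CPM in WT and at 101.2, 100.02 and 123.0 CPM in KD, without overlap (log2 fold change −0.50, adjusted p = 0.258, edgeR). STAG1, the paralog of STAG2, was at 30.03, 27.1 and 23.8 CPM in WT and at 19.98, 15.7 and 14.5 CPM in KD, also without overlap (log2 fold change −0.69, adjusted p = 0.204, edgeR). SMC3 had a log2 fold change of −0.65 (adjusted p = 0.444, edgeR). RAD21 had −0.93 (adjusted p = 0.323 in edgeR, and 0.0181 with the replicate block, which called it lower). In the list of loading, cohesion and its release, 2 of 18 genes fell and 0 rose, where 0.839% and 1.75% of tested genes did. The 2 were PLK1 and BIRC5, a passenger protein that guides SGO1 and Aurora B at centromeres. With the replicate block 7 were lower, where 4.42% of tested genes were. PLK1, BUB1, AURKB and PTTG1 also stand in the list of DNA replication and mitosis, so these counts are not separate from the counts there. BIRC5 fell from 244.5 ± 79.7 to 74.0 ± 23.6 CPM (SD, n = 3 each, adjusted p = 0.0214, edgeR).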

How the data were processed

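Per the study's methods, polyadenylated RNA was made into directional libraries, read as single reads, mapped to hg19 with STAR and counted with RSEM; the strand setting of the counting is not given in the sources used here. In the table the authors deposited, values are expected counts, which had not been scaled between libraries. Expected counts were rounded, filtered with filterByExpr (15605 of 57820 genes), scaled by TMM and tested with edgeR 4.0.16 (R 4.3.3) by the quasi-likelihood test, KD against WT, 3 libraries each, with p-values adjusted over the tested genes by the Benjamini-Hochberg method and a threshold of 0.05. The 95% intervals use the standard errors of this unpaired fit. Alternatives were DESeq2 1.42.0, limma-voom (limma 3.58.1), other scalings and filters, a replicate block and left-out libraries. The unpaired edgeR, DESeq2 and limma-voom fits were tested on simulated counts that held no replicate effect. The bound allowed for false calls was wider for DESeq2. The replicate block was not tested in this way. Same-numbered libraries deviated together (r = 0.556, 0.451 and 0.351 over 8932 genes of at least 10 CPM), although the labels give no shared origin. The numbers were therefore used as pairs in the replicate block and in the differences within replicate numbers. The main fit did not use them. WT 2 with KD 3 (r = 0.266) and WT 3 with KD 2 (r = 0.137) also correlated. Every library correlated best with its own number. Deviations were taken from the mean of 3 libraries. A replicate 1 that stands apart therefore makes replicates 2 and 3 of both conditions correlate however they are matched. The pairing of numbers 2 and 3 is thus less well shown than that of number 1. Named genes are the 10 members, STAG2, STAG1, SMC1A, SMC3, RAD21, MAU2 and, in each related list, up to 5 genes with an adjusted p under 0.05 by smallest p; any other was chosen after its values were seen. The members and lists were chosen with earlier results of these data known. Sequences came from a RefSeq promoter table.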

Additional observations from a re-analysis of the deposited data

How the results depend on the processing

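The count of regulators called stayed at 0 in every alternative run, which were other scalings, DESeq2, limma-voom, other filters, unrounded counts, an adjusted p under 0.01, the replicate block and each library left out. The replicate block changed no call among the 10 regulators and raised the genes called in the related lists from 11 to 31. That count was also 25 with DESeq2, 27 without a filter on low counts, 17 with at least 10 counts in every library, 2 at an adjusted p under 0.01, 19 without replicate 1 of both conditions, and from 2 to 16 with single libraries left out (2 without WT replicate 3, KD replicate 2 or KD replicate 3, 3 without WT replicate 2, 4 without KD replicate 1, 16 without WT replicate 1). Regulators without overlap numbered 2 with DESeq2 size factors (PDS5B joined HDAC8; 22.04% of tested genes), 7 without replicate 1 of both conditions (50.8%), and from 1 to 5 with single libraries left out, being 5 without WT replicate 1 (36.3%), 4 without KD replicate 1 (33.2%), 2 without KD replicate 3 (28.8%) and 1 without each of the others (29.5% to 30.5%). Log2 fold changes turned sign in 9 cases: without WT replicate 1 for NIPBL (0.25), WAPAL (0.19), PDS5A (0.024) and ESCO1 (0.60), without KD replicate 2 for NIPBL (0.076) and WAPAL (0.018), without KD replicate 3 for WAPAL (0.058), and for ESCO1 with limma-voom (0.00495) and without replicate 1 of both conditions (0.30). With single libraries left out these 4 genes ran from −0.49 to 0.25 (NIPBL), −0.26 to 0.19 (WAPAL), −0.59 to 0.024 (PDS5A) and −0.55 to 0.60 (ESCO1). The others ran from −0.74 to −0.33 (PDS5B), −0.19 to −0.042 (CTCF), −1.27 to −0.20 (ESCO2), −0.62 to −0.14 (CDCA5), −0.93 to −0.073 (SGOL1) and 0.36 to 0.55 (HDAC8), and none of the 10 was called. Of the 6 log2 ratios, 3 turned sign when libraries were left out. NIPBL over WAPAL (−0.075) became 0.014 without WT replicate 1 and 0.067 without KD replicate 2, within a range from −0.20. CDCA5 over WAPAL (−0.28) became 0.082 without WT replicate 3 and 0.14 without KD replicate 1, within a range from −0.84. CTCF over NIPBL (0.021) became −0.38, −0.17 and −0.15 without WT replicate 1, KD replicate 2 and KD replicate 3, within a range up to 0.38, and −0.012 without replicate 1 of both conditions. The cause of these shifts was not tested. ESCO2 had the fewest counts of the 10.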

Other observations

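Of the 9 relatives and architectural partners of CTCF listed, 8 were tested and 0 were called by edgeR's quasi-likelihood test with or without the replicate block, and CTCFL, the germline paralog of CTCF, did not pass the filter on low counts. The list had a median log2 fold change of −0.18. MAZ was at 314.5, 421.4 and 475.9 CPM in WT and at 283.7, 272.4 and 274.7 CPM in KD, without overlap (adjusted p = 0.244, edgeR). YY1, a factor of enhancer and promoter contacts, had means of 55.9 ± 7.01 and 55.6 ± 1.04 CPM (SD, n = 3 each). These genes were chosen after their values were seen.

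Of the other class I deacetylases, HDAC1, HDAC2 and HDAC3, 0 were called by edgeR without the block, and HDAC1 was lower with it (adjusted p = 0.0247, edgeR). HDAC1 was at 223.2, 336.0 and 341.5 CPM in WT and at 131.5, 232.4 and 241.9 CPM in KD, below WT in every replicate number, while HDAC8 was above WT in each. HDAC2 had means of 42.5 ± 0.47 and 40.9 ± 12.0 CPM (SD, n = 3 each), so its KD libraries were spread more widely than its WT libraries.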
